A study of Rattus norvegicus with 9 samples.

Results

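Tetraspanins are small proteins that cross the membrane several times and gather integrins and other partners into microdomains at the cell surface and on endosomes. Cd151 binds directly to the laminin-binding integrins, in which an alpha chain (Itga3 or Itga6) is joined to a beta chain (Itgb1 or Itgb4), and these integrins hold kidney epithelia and podocytes to the laminin of their basement membranes. Cd9, Cd63 and Cd81 are also common constituents of extracellular vesicles. The mRNA of 9 of these genes, the tetraspanins Cd151, Cd9, Cd63, Cd81 and Cd82 and the integrin subunits Itga3, Itga6, Itgb1 and Itgb4, was followed in rat kidneys. They were found by gene name among 26115 gene names on the array, and were read by 10 of 30367 gene probes. The group was selected on the difference of Cd151 between MSC-perfused and control kidneys, which was among the clearest of the genes higher after MSC, so that difference is given as a description without a test.

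Each of the 9 one-colour Agilent arrays measured the Cy3-labelled cRNA of 1 kidney from an F344 rat after 20 min. of warm ischaemia. The 5 NP kidneys were not perfused according to the treatment field of the labels and the methods of the study, whereas 4 hrs of perfusion with Belzer solution (BS) at 4°C is written in their titles and descriptions, and they are called NP here. The 4 MSC kidneys had the same ischaemia and were then perfused for 4 hrs at 4°C with BS to which mesenchymal stromal cells (MSC) had been added. If the NP kidneys were not perfused, MSC and NP kidneys differed in perfusion as well as in MSC. BS-only and vesicle-perfused kidneys were not analysed here, nor was a further MSC array that the authors discarded for poor quality. The MSC came from the bone marrow of EGFP transgenic Sprague Dawley rats, and donor and kidney mRNA of the same species cannot be told apart by these probes. The study described the MSC as carrying CD29, the product of Itgb1, and their vesicles as carrying CD9, CD63 and CD81. In whole tissue, a change in the number of cells of a type and a change in mRNA per cell cannot be told apart either.

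Between 65.6% and 74.3% of gene spots were well above background on each array and none was saturated. Of 30367 gene probes, 15836 passed the filter on dim probes and gave 13929 genes. Markers of podocytes, proximal tubule and the other nephron segments were detected, apart from Pvalb, which was well above background on 0 arrays. The arrays lay on 2 slides that were scanned separately and held both groups. MSC replicates 3 and 4 had the highest levels of fat marker genes, with list means of 13.55 and 12.68 on the log2 scale against at most 11.11 on the other arrays. In limma 0% of genes were called in either direction, where a call needed both a fold change over 1.5 and an FDR under 0.05. Members were therefore read at an unadjusted p under 0.05, which 6.6% of all genes passed as higher and 5.1% as lower in MSC samples, 11.7% together.

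The probe sequences below show which stretch of each transcript was measured, for the 3 tetraspanins with separated groups, for Itga6, whose values were spread most widely, and for the Itgb1 probe that represented its gene. They are the 60-base probes of the array design, taken from the array files and written 5′ to 3′ in lower case with no base marked.
Cd151: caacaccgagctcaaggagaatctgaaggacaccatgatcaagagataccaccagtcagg
Cd82: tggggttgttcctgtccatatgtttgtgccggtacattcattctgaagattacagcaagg
Cd63: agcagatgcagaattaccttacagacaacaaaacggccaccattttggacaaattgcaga
Itga6: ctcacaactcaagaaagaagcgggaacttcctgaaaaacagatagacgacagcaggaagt
Itgb1: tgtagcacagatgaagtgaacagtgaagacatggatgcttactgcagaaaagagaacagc

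Positions are those of the array files on rat build rn4. The Cd151 probe (A_44_P271720) lay at chr1:201656663-201656722 on the plus strand and started at base 536 of the transcript. The Cd82 probe (A_44_P351490) lay at chr3:77832547-77832606 on the minus strand, from transcript base 979. The Cd63 probe (A_42_P744495) lay at chr7:2210440-2210499 on the plus strand, from transcript base 421. The Itga6 probe (A_44_P187056) lay at chr3:54263800-54263859 on the plus strand, from transcript base 2876. The Itgb1 probe shown (A_44_P273697) lay at chr19:58611137-58611196 on the minus strand, from transcript base 1673, and a further Itgb1 probe (A_44_P507943) started at base 3163. Each of the other members had 1 probe, and no probe of another name carried a member's accession.

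Besides Cd151, whose higher level chose the group, the other 4 tetraspanins had a higher mean in MSC than in NP samples, by 0.25 to 0.45 on the log2 scale. The integrin subunits had log2 fold changes of both signs, and 48.6% of all genes had a positive one. Cd151, Cd82 and Cd63 were above every NP sample in each of the 4 MSC samples. Of the 9 members 8 passed the filter. Of these, leaving out Cd151, 2 (Cd82 and Cd63) were higher at an unadjusted p under 0.05 and 0 were lower, and none passed the FDR in limma. The same 2 had MSC values above all NP values, a separation that 3.13% of all genes showed.

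**Figure D1:**
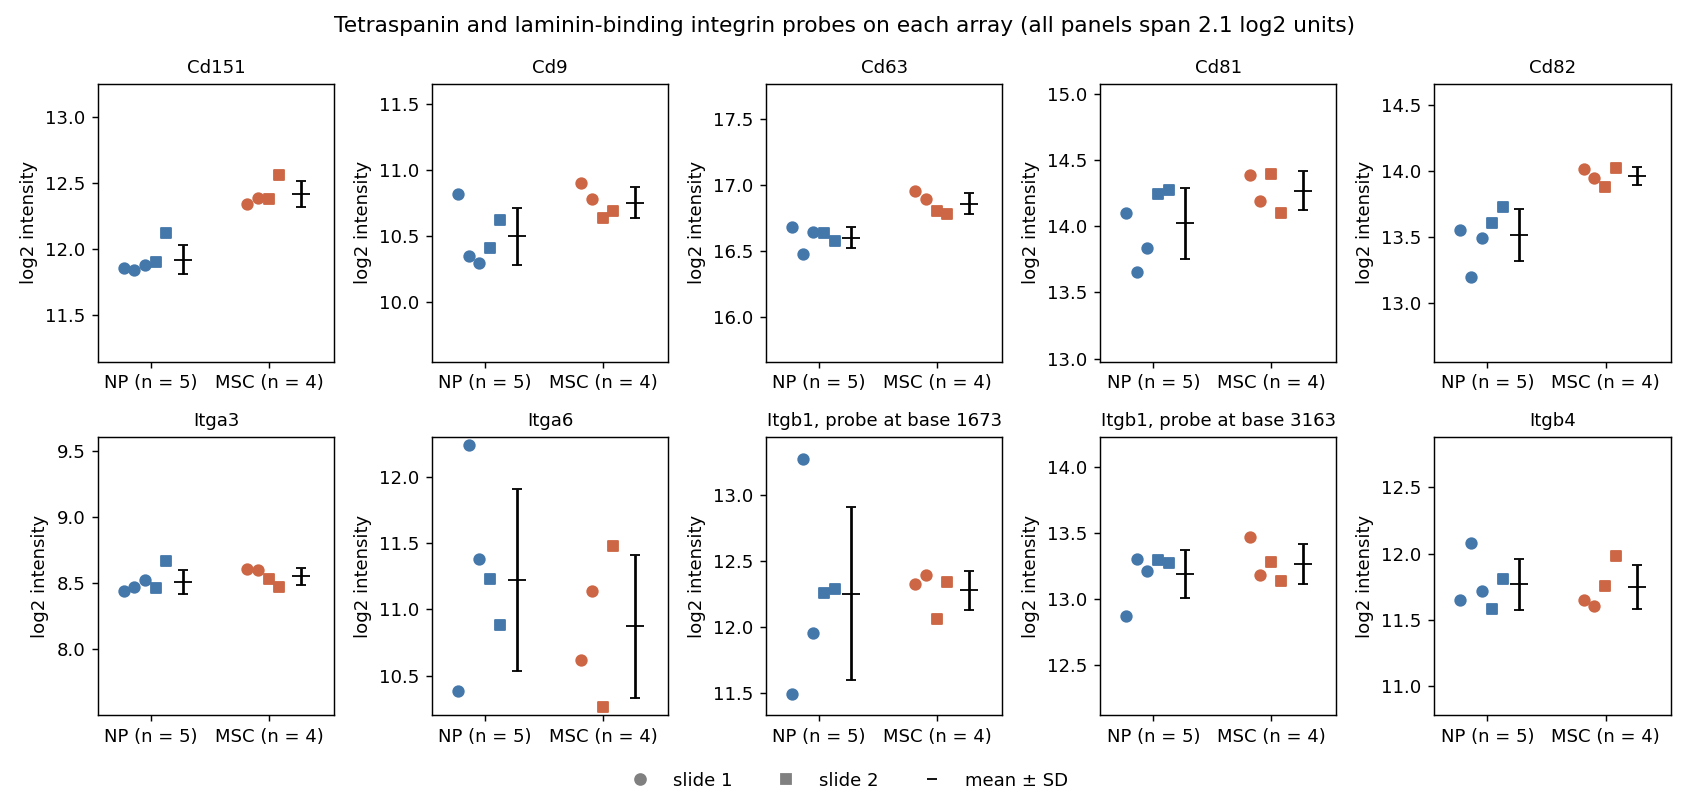
Normalized log2 intensity of each member probe (y axis) on the 5 NP and 4 MSC arrays (x axis), with circles for slide 1, squares for slide 2 and a bar for the mean ± SD of each group. Cd151, Cd82 and Cd63 show no overlap between groups, and Itga6 and the Itgb1 probe at base 1673 show the widest NP spread.

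Cd151, the tetraspanin that ties laminin-binding integrins to the tetraspanin web, had normalized log2 intensities of 11.86, 11.84, 11.88, 11.91 and 12.12 in NP replicates 1 to 5. In MSC replicates 1 to 4 they were 12.34, 12.39, 12.38 and 12.56. The lowest MSC sample was above the highest NP sample, and NP replicate 5 stood above the other NP samples. The MSC mean was 12.42 ± 0.10 (SD, n = 4) against an NP mean of 11.92 ± 0.11 (SD, n = 5), so the log2 fold change was 0.49 (SE 0.09), or 1.41-fold. Within slide 1 the difference was 0.50 and within slide 2 it was 0.45. In the order of higher genes from which it was picked, Emp1 (log2 fold change 0.99) stood just before it and the unnamed probe A_64_P013258 (0.72) just after it.

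Cd82, a tetraspanin known as a suppressor of metastasis, had log2 intensities of 13.55, 13.20, 13.49, 13.61 and 13.72 in the NP samples. The MSC samples had 14.02, 13.95, 13.87 and 14.02. Every MSC sample was above every NP sample, and NP replicate 2 was the lowest. The means were 13.96 ± 0.07 (SD, n = 4) and 13.52 ± 0.20 (SD, n = 5), and the log2 fold change was 0.45 (SE 0.11, 95% interval 0.21 to 0.69), or 1.36-fold. In limma the unadjusted p was 0.00186 and the FDR 0.333, and a two-sided exact permutation test over the 126 splits of the arrays gave p = 0.0159. The difference was 0.57 within slide 1 and 0.28 within slide 2, and the unadjusted limma p was 0.0529 on slide 2 alone and 0.0840 when arrays were scaled by their medians.

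Cd63, a tetraspanin of late endosomes, lysosomes and exosomes, had log2 intensities of 16.68, 16.48, 16.65, 16.64 and 16.58 in NP samples. In MSC samples they were 16.95, 16.90, 16.81 and 16.78. The groups did not overlap, and the lowest value was again that of NP replicate 2. The means were 16.86 ± 0.08 (SD, n = 4) and 16.60 ± 0.08 (SD, n = 5), with a log2 fold change of 0.26 (SE 0.08, 95% interval 0.09 to 0.42), or 1.19-fold. The limma p was 0.00740 with an FDR of 0.335, and the exact permutation test gave p = 0.00794, the smallest value it can give here. The unadjusted limma p was 0.177 after 75th percentile scaling of the processed signal, 0.362 after median scaling and 0.131 on slide 2 alone, where the difference was 0.19 against 0.32 on slide 1.

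Cd9, a tetraspanin needed for the fusion of egg and sperm, had log2 intensities of 10.82, 10.35, 10.30, 10.41 and 10.62 in NP samples and of 10.90, 10.78, 10.64 and 10.69 in MSC samples. NP replicate 1 lay within the MSC values, so the groups overlapped. The log2 fold change was 0.25 (SE 0.12, 95% interval -0.01 to 0.52), with a limma p of 0.0585, an FDR of 0.444 and an exact permutation p of 0.0873. When single arrays were left out the log2 fold change was 0.20 to 0.33 and the unadjusted limma p up to 0.155. Of these fits, only the one without NP replicate 1 (0.33) had an unadjusted limma p under 0.05, at 0.00759.

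Cd81, the tetraspanin of the B cell co-receptor, had log2 intensities of 14.10, 13.66, 13.83, 14.25 and 14.27 in NP samples and of 14.38, 14.19, 14.40 and 14.10 in MSC samples. On slide 1 every NP sample was below both MSC samples, NP replicates 2 and 3 by the most, and the difference was 0.43. On slide 2 the difference was -0.01. Over all arrays the log2 fold change was 0.25 (SE 0.14, 95% interval -0.07 to 0.56), with a limma p of 0.109, an FDR of 0.517 and an exact permutation p of 0.167, and without NP replicate 2 it was 0.16.

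**Figure D2:**
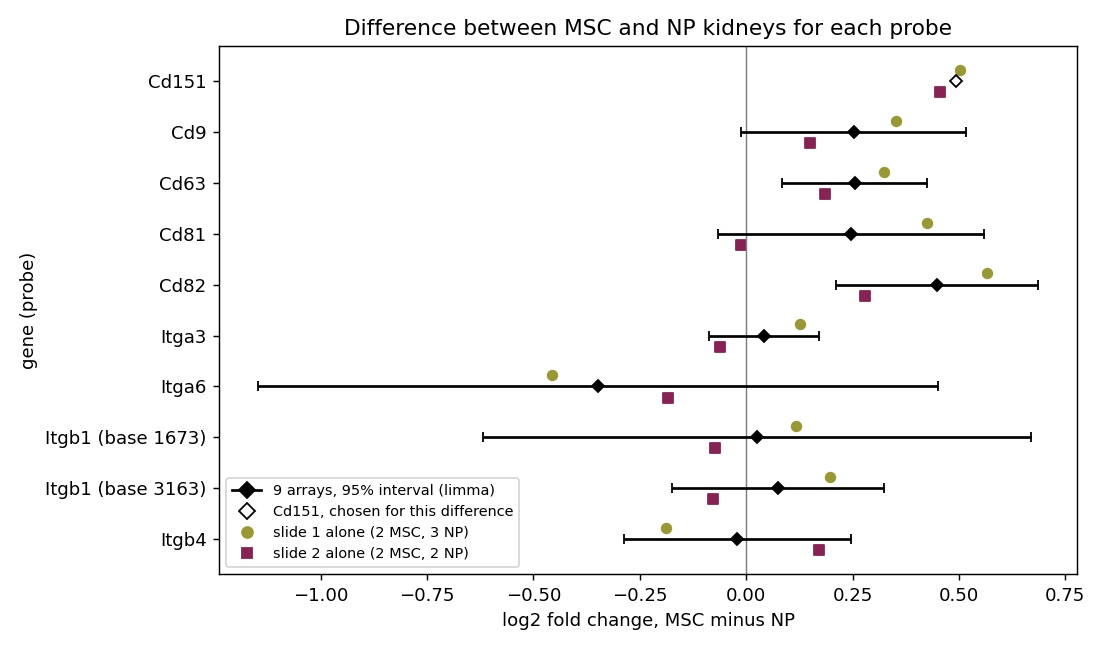
Log2 fold change of MSC over NP (x axis) for each member probe (y axis), as diamonds with the 95% interval from limma over 9 arrays (none for Cd151, the open diamond, which chose the group), and within slide 1 (circles) and slide 2 (squares) alone. The 5 tetraspanins lie between 0.25 and 0.49, and the intervals of Cd9, Cd81 and all integrin probes include 0.

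The log2 fold changes of the integrin subunits lay on both sides of 0, and their difference from those of the tetraspanins was not tested. Itga3, the alpha chain that joins Itgb1 in podocytes and tubules, was dim and did not pass the filter, although it was well above background on 9 arrays, with raw intensities of 318 to 440. Its log2 intensities were 8.44, 8.47, 8.52, 8.46 and 8.66 in NP samples and 8.61, 8.60, 8.53 and 8.47 in MSC samples. These values overlapped, and in limma over all probes the log2 fold change was 0.04 (SE 0.06, 95% interval -0.09 to 0.17) with an unadjusted p of 0.491, and the exact permutation p was 0.413.

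Itga6, the alpha chain that pairs with either beta chain, had the widest spread of the members. Its log2 intensities were 10.38, 12.24, 11.38, 11.23 and 10.88 in NP samples and 10.62, 11.14, 10.26 and 11.48 in MSC samples. NP replicate 2 was the highest of all arrays and MSC replicate 3 the lowest. The log2 fold change was -0.35 (SE 0.36, 95% interval -1.15 to 0.45), with a limma p of 0.354, an FDR of 0.728 and an exact permutation p of 0.437. It was -0.09 without NP replicate 2 and -0.14 without MSC replicate 3, and -0.56 without NP replicate 1 and -0.55 without MSC replicate 4, so the size of the difference depended on single arrays. The raw intensities of NP replicate 2 were likewise the highest for Itga6, at 3200 against 1605 to 2670 on the other arrays.

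Itgb1, the beta chain shared by most laminin and collagen receptors, had 2 probes that differed in how far NP replicate 2 stood from the other arrays. At the probe from base 1673, which varied more and stood for the gene, log2 intensities were 11.50, 13.27, 11.95, 12.26 and 12.29 in NP samples and 12.32, 12.39, 12.06 and 12.34 in MSC samples. At the probe from base 3163 they were 12.87, 13.30, 13.21, 13.30 and 13.28 in NP samples and 13.47, 13.18, 13.28 and 13.13 in MSC samples. NP replicate 2 stood far above the other arrays at the first probe and among the other NP samples at the second. The lowest array at both probes was NP replicate 1. The log2 fold change was 0.03 (SE 0.29, 95% interval -0.62 to 0.67) at the first, with a limma p of 0.932 and an exact permutation p of 0.913. It was 0.08 (SE 0.11, 95% interval -0.17 to 0.32) at the second, with a limma p of 0.516 and an exact permutation p of 0.563. The sign of the first turned with several alternatives, and the interval allows a change of either sign.

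Itgb4, the beta chain that anchors hemidesmosomes through plectin, had log2 intensities of 11.65, 12.08, 11.72, 11.58 and 11.81 in NP samples and 11.65, 11.60, 11.75 and 11.98 in MSC samples. NP replicate 2 was again the highest, and the groups overlapped. The log2 fold change was -0.02 (SE 0.12, 95% interval -0.29 to 0.25), with a limma p of 0.864, an FDR of 0.960, an exact permutation p of 0.865 and opposite signs on slide 1 (-0.19) and slide 2 (0.17).

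NP replicate 2 therefore had the lowest Cd151, Cd63, Cd81 and Cd82 values and the highest Itga6, Itgb4 and base 1673 Itgb1 values of the NP samples. It also had the highest mean level of stromal and MSC marker genes of all arrays, 13.12 on the log2 scale, and the part of this in the member values was not tested. Without it the log2 fold changes were 0.47 for Cd151, 0.37 for Cd82 and 0.22 for Cd63, the last with an unadjusted limma p of 0.0128. Without both NP replicates 1 and 2, the arrays that correlated least with their group, they were 0.45, 0.35 and 0.24, and without MSC replicates 3 and 4 they were 0.44, 0.47 and 0.32.

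Genes with related roles were described from lists. Their counts at an unadjusted p under 0.05 stand beside those of all genes, 6.6% higher and 5.1% lower. Among the other tetraspanins, 20 of 24 on the array passed the filter, of which 5 were higher and 0 lower at an unadjusted p under 0.05, and the list median was 0.03 against -0.01 for all genes. This median kept its sign under 19 of 26 alternatives, over which it ranged from -0.06 to 0.12. Tspan12, which acts with Frizzled receptors in norrin signalling, averaged 10.42 ± 0.06 (SD, n = 4) in MSC against 10.15 ± 0.14 (SD, n = 5) in NP samples (FDR = 0.335 in limma). Tspan1 averaged 15.62 ± 0.28 in MSC against 15.01 ± 0.42 in NP samples, with a log2 fold change of 0.61 (FDR = 0.353). The log2 fold changes of Tspan6 and Tspan3 were 0.19 (FDR = 0.395) and 0.30 (FDR = 0.413), and these genes and Tspan12 had no overlap between groups, whereas Tspan1 overlapped through NP replicate 1 (15.63). Tspan15 was separated in the opposite direction, with every MSC sample below every NP sample and a log2 fold change of -0.15. The fifth of the higher genes was Tspan8, with a log2 fold change of 0.27 (FDR = 0.419).

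Among the partners of tetraspanins and genes of vesicle sorting, 14 of 15 passed the filter, with 2 higher, 0 lower and a list median of 0.06. This median was 0.02 to 0.08 when single arrays were left out, and it kept its sign under 24 of 26 alternatives. Epcam, an adhesion molecule of epithelial cells, had log2 intensities of 15.01, 15.45, 15.40, 15.27 and 15.37 in NP samples and of 15.96, 15.83, 15.52 and 15.56 in MSC samples. Every MSC sample was above every NP sample, and the log2 fold change was 0.42 (SE 0.12, FDR = 0.335 in limma). Cldn7, a tight junction claudin that binds Epcam, averaged 12.30 ± 0.17 (SD, n = 4) in MSC against 11.43 ± 0.75 (SD, n = 5) in NP samples (FDR = 0.385), and NP replicate 5 (12.44) lay within the MSC values.

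**Figure D3:**
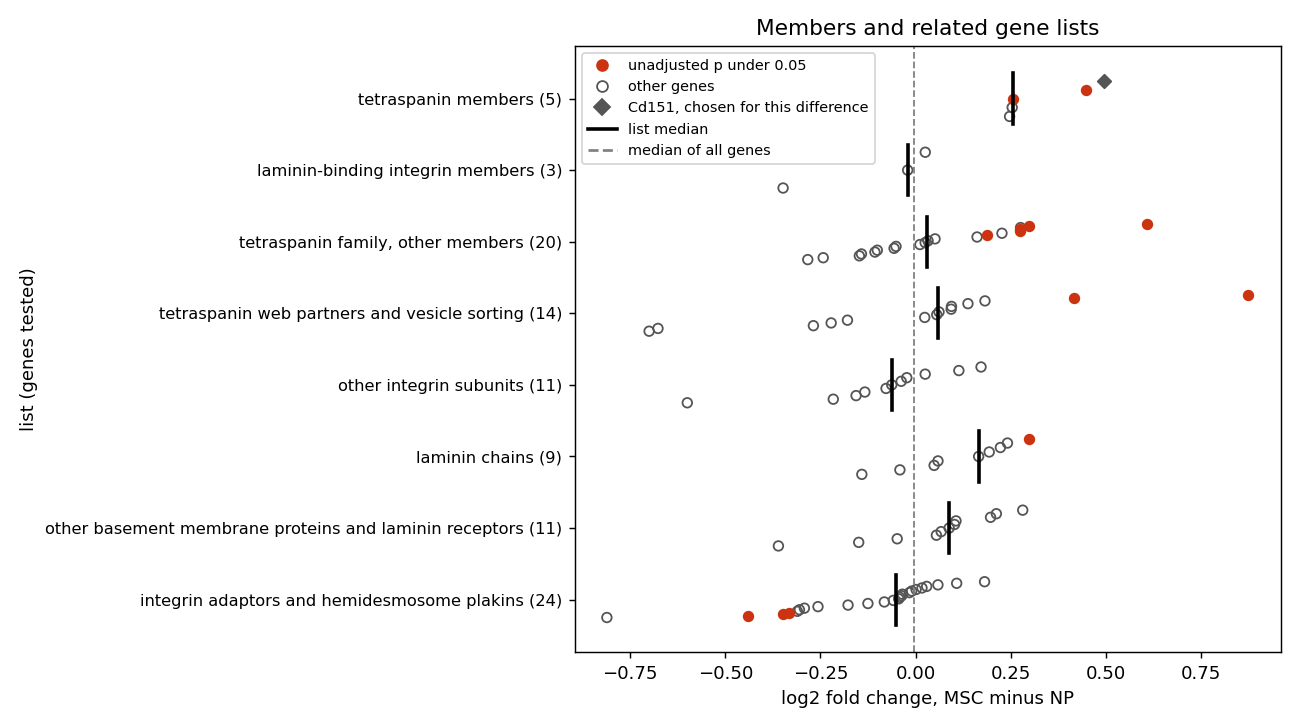
Log2 fold change of MSC over NP (x axis) for every tested gene of the members and the related lists (y axis, with the number of genes), filled red where the unadjusted limma p was under 0.05, with list medians as black bars and the median of all genes as a dashed line. Medians of the related lists lie between -0.06 and 0.17, and the bar of the tetraspanin members includes Cd151, drawn as a grey diamond because it chose the group.

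The laminins are the ligands of these integrins. Of 11 chains 9 passed the filter, 7 of them with a positive log2 fold change, and the median was 0.17. It was 0.06 without the filter, and leaving out MSC replicate 3 (0.05), NP replicate 1 (0.08) or MSC replicate 2 (0.25) moved it by over 1.5 times. Lamb2, the beta chain of the mature glomerular basement membrane, was the chain with an unadjusted p under 0.05, at 11.93 ± 0.16 (SD, n = 4) in MSC against 11.64 ± 0.18 (SD, n = 5) in NP samples. Its log2 fold change was 0.30 (FDR = 0.392 in limma), and the groups overlapped. Among the other basement membrane proteins and laminin receptors, 0 of 11 reached an unadjusted p under 0.05, and Col4a2, a chain of type IV collagen, had the smallest (log2 fold change 0.28, FDR = 0.506, and 0.17 without NP replicate 1).

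Of the other integrin subunits 11 of 20 passed the filter and 0 reached an unadjusted p under 0.05 in either direction, with a median of -0.06. Itga7, a laminin-binding alpha chain of muscle, had the smallest p (log2 fold change 0.17, FDR = 0.535), and its log2 fold change was 0.10 without MSC replicate 3 and 0.11 without NP replicate 2. Of 24 integrin adaptors and hemidesmosome genes, all of which passed the filter, 0 were higher and 3 lower at an unadjusted p under 0.05, and the median was -0.05. This median was -0.14 without NP replicate 1, -0.08 without MSC replicate 1 and -0.09 without MSC replicate 2. That of the other integrin subunits was -0.11 without NP replicate 1, -0.10 without MSC replicate 1, -0.03 without NP replicate 4 and -0.02 without MSC replicate 3. Col17a1, the transmembrane collagen of hemidesmosomes, averaged 9.53 ± 0.07 (SD, n = 4) in MSC against 9.86 ± 0.19 (SD, n = 5) in NP samples (FDR = 0.335 in limma). Every MSC sample was below every NP sample, as for 2.13% of all genes, but after 75th percentile scaling of the processed signal the log2 fold change was -0.01. Plec, the plectin that links Itgb4 to keratin filaments, had a log2 fold change of -0.44 (FDR = 0.373). Pxn, the focal adhesion adaptor paxillin, had one of -0.35 (FDR = 0.396), which was 0.32 after that scaling. With the mean of all probes of a gene in place of the most variable one, Plec had a log2 fold change of -0.26 and Pxn one of -0.11, and neither had an unadjusted p under 0.05. Without MSC replicates 3 and 4 that of Pxn was -0.16. Over the related lists together 8 genes were higher and 3 lower at an unadjusted p under 0.05. Of all genes 6.6% were higher and 5.1% lower. The counts of the lists were unsteady, and their difference from those shares was not tested. Between 3 and 5 were higher without NP replicate 3 or 4 or without MSC replicate 1, 3 or 4, and 9 were lower without NP replicate 1 and 6 without NP replicate 4. Median scaling gave 1 higher and 6 lower.

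Cell type markers were set beside the tetraspanins, since these genes are not confined to a segment of the nephron. The mean log2 level of 4 distal convoluted and connecting tubule markers was 11.37 to 11.82 in NP and 11.83 to 12.09 in MSC samples, with 3 markers higher and 1 (S100g) lower at an unadjusted p under 0.05. Of these genes Calb1 alone had no overlap between groups. For 7 intercalated cell markers the ranges were 11.47 to 12.20 and 12.17 to 12.55, with 4 markers higher, and for 7 principal cell markers they were 13.69 to 14.38 and 14.24 to 14.82, with 3 higher. NP replicate 2 had the lowest intercalated and principal cell levels, as it had the lowest Cd82 and Cd63. Red cell markers went the other way, at 14.00 to 15.15 in NP and 10.72 to 14.53 in MSC samples, with 3 of 3 lower. The 8 stromal and MSC markers ranged from 11.64 to 13.12 in NP and from 12.16 to 12.93 in MSC samples, with 1 higher and 0 lower. The higher one was Col1a1, a chain of type I collagen (log2 fold change 1.06, FDR = 0.335 in limma), while Thy1, the gene of the MSC marker CD90, did not pass the filter. The 7 podocyte markers ranged from 11.60 to 12.22 in NP and from 11.16 to 12.04 in MSC samples, with 0 higher and 0 lower. For 8 proximal tubule markers the ranges were 16.1 to 16.6 and 16.5 to 16.7, with 2 higher and 0 lower. Thick ascending limb markers had 1 of 5 higher and 0 lower, and endothelial, smooth muscle, leukocyte and urothelial markers had 0 in either direction. The part of these cell types in the tetraspanin levels was not tested.

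**Figure D4:**
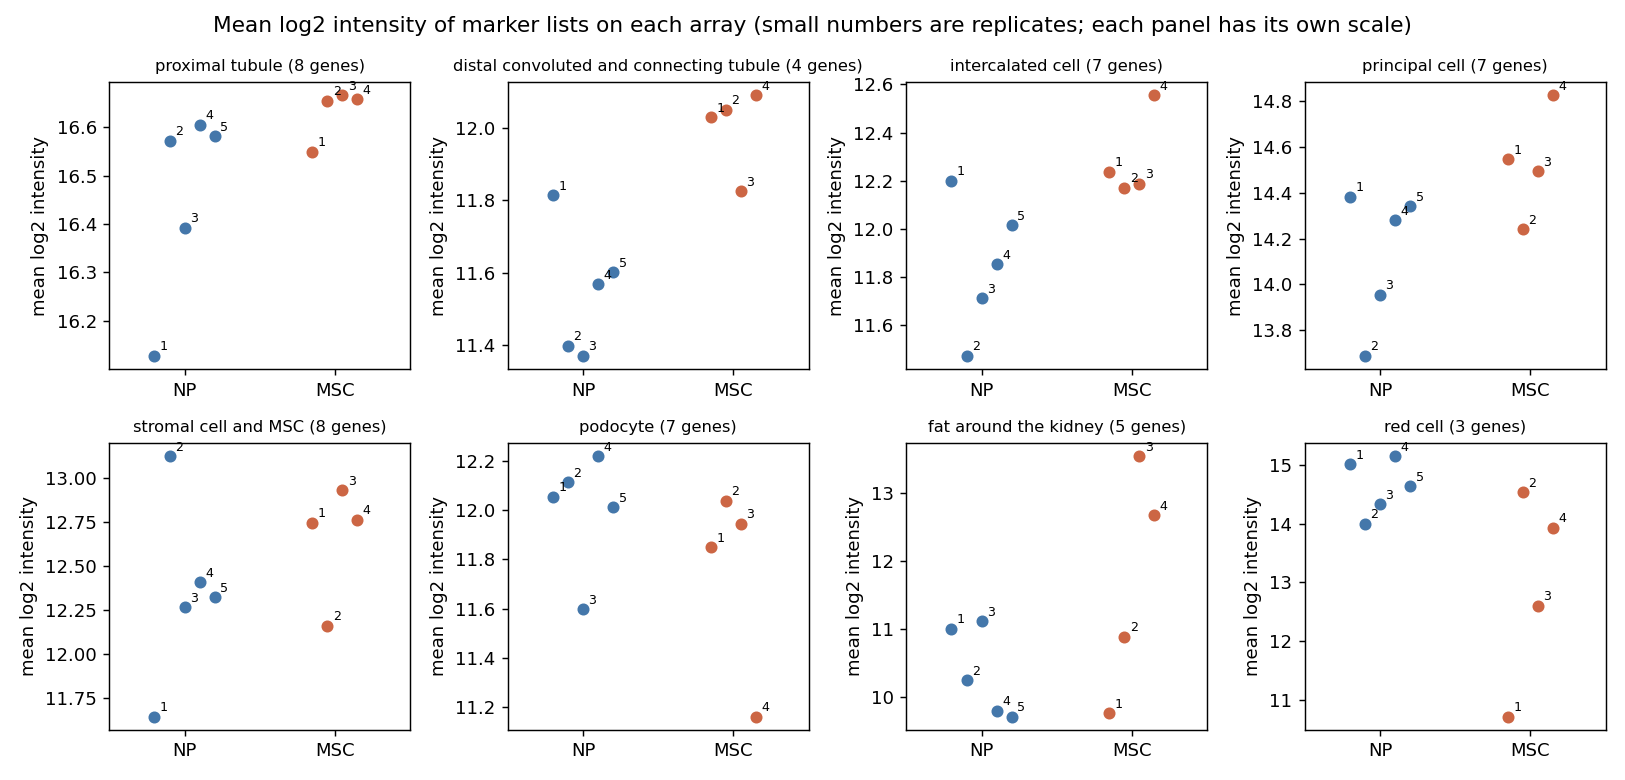
Mean normalized log2 intensity of 8 cell type marker lists (y axis) on each NP and MSC array (x axis), with small numbers for the replicate. The mean of the distal convoluted and connecting tubule markers is at most 11.82 in NP and at least 11.83 in MSC samples, the red cell markers are lower in most MSC samples, and the fat markers stand apart in MSC replicates 3 and 4.

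The genes most like Cd151 across arrays were sought after subtraction of each group's mean, so that the difference between MSC and NP samples did not enter. Over 9 arrays and 13928 genes, Pearson's r within groups was highest for Chmp1a (0.96, Spearman's rho 0.90), a protein of the ESCRT machinery that buds vesicles into endosomes. Mvp (0.95, rho 0.75), the major vault protein, Dctn1 (0.94, rho 0.62), a subunit of dynactin, and Abcf2 (0.94, rho 0.85) were also among the most alike. Without NP replicate 5 and MSC replicate 4, the samples farthest from the Cd151 median of their groups, r was 0.88 for Chmp1a, 0.51 for Mvp, 0.38 for Dctn1 and 0.65 for Abcf2, so that the last 3 rested largely on these arrays. Of the members, Cd82 was most like Cd151, with r = 0.62 and rho = 0.70 at rank 594, and r = 0.49 without these arrays. Cd63 had r = -0.33 over 9 arrays and 0.17 without them, so its sign rested on them. The arrays share slides and tissue composition, and these values are given without a test. The highest r were picked from 13928 genes over 9 arrays, so their height alone is no sign of a link to Cd151.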

How the data were processed

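The authors labelled kidney RNA with Cy3, discarded 1 MSC array for poor quality and deposited, for each of 9 arrays, the spot intensity values of Agilent Feature Extraction (version 10.7.3.1 per the file headers, with probe positions on rn4), and a table of normalized log2 values made with limma. Per the labels and the methods of the study, raw values were log2 transformed without background subtraction and normalized by cyclic loess. The deposited log2 values also cover dim probes. All columns with a value per sample were used (0 left out).

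Here mean pixel intensities were taken from the raw files, spots with outlier flags were left out, and gene and negative control spots were normalized by cyclic loess in limma 3.58.1 (R 4.3.3, with the data.table package, version 1.17.8). The filter of the methods is worded relative to the negative controls and can be read in several ways. A probe was kept when its log2 value was over 1.1 times the 95th percentile of the log2 negative controls on at least 4 arrays. Spots of a probe were averaged and the most variable probe was kept per gene. Pearson's r with the deposited values was at least 0.9999 on each array. MSC and NP were compared with limma and the Benjamini-Hochberg FDR over 13929 genes; members under the filter were fitted over all probes. A gene was called when its fold change was over 1.5 and its FDR under 0.05. A two-sided exact permutation test was added for each member probe but that of Cd151.

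The members and lists were chosen with earlier results of these data known, so their p-values are no independent support. Genes named are all members, up to 4 genes with an unadjusted p under 0.05 of each list, or the gene with the smallest p where none passed, and the 5 genes most like Cd151, of which 1 is not reported here. Tspan8, Tspan15, Thy1, Col1a1, Calb1, S100g, Pvalb, Emp1 and A_64_P013258 were named after their values were seen. All 9 member names were found in the RefSeq gene table. The steps were tested on simulated data. Alternatives took other intensity columns, scalings, filters, probes, blocks and slides, left out each array, and used the deposited log2 table. The number of arrays limits the precision. The labels name the arrays of a group as replicates, and p-values measure the spread between these kidneys.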

Additional observations from a re-analysis of the deposited data

Results flagged for a closer look

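Of 20 groups of member values examined, a sample at the end of its group stood apart from the rest in 2, where chance flags about 1 in 20 groups. NP replicate 5 had a Cd151 log2 intensity of 12.12 against 11.84 to 11.91 in the other NP samples, a gap of 0.775 of the range of the group, and without it the log2 fold change of Cd151 was 0.54. NP replicate 1 had a log2 intensity of 12.87 at the Itgb1 probe from base 3163 (A_44_P507943) against 13.21 to 13.30 in the other NP samples, a gap of 0.782 of the range.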

How the results depend on the processing

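Cd151 was higher in MSC samples under all 26 alternatives (0.42 to 0.54 on the log2 scale), but it was chosen for this difference. Cd82 (0.28 to 0.57), Cd63 (0.17 to 0.32) and Cd9 (0.15 to 0.36) were also higher under all of them. Cd81 reversed on slide 2 alone (-0.0114), as did Itga3 (-0.0611), Itgb1 (-0.0731) and Itgb4 (0.171). Itgb1 also reversed under median scaling (-0.0102) and when NP replicate 1 (-0.164), NP replicate 3 (-0.0499) or MSC replicate 2 (-0.0122) was left out, with a range of -0.164 to 0.279 over single arrays. Itgb4 reversed when NP replicate 2 (0.0564), MSC replicate 1 (0.0106), MSC replicate 2 (0.0272) or NP replicates 1 and 2 together (0.0438) were left out, with a range of -0.0987 to 0.0564 over single arrays. Pxn reversed under 75th percentile scaling (0.318). The median of the tetraspanin partners fell to -0.0537 on slide 1 alone and kept its sign under 24 of 26 alternatives. The median of the other tetraspanins, 0.03, was below 0 under 7 alternatives, the lowest value being -0.06. The causes were not tested.

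The 2 members other than Cd151 at an unadjusted p under 0.05 became 1 under 75th percentile scaling, 0 under median scaling, 0 on slide 2 alone, 3 without a filter, with array weights or with the deposited log2 values, and 2 to 3 when single arrays were left out. The 8 higher genes of the related lists became 5, 1 and, on slide 1 alone, 4, with 3 to 10 when single arrays were left out (3 without MSC replicate 1 or 4). The 3 lower genes became 6 under median scaling, 6 without a filter, 5 with array weights, 5 with the deposited log2 values and 2 to 9 when single arrays were left out (9 without NP replicate 1). Of the 1629 genes at this p, 56.4% were higher; median scaling left 856 with 34.2% higher and moved the median of all genes to -0.04. Slide 1 alone gave 806, and leaving out single arrays 1182 to 2317. Genes called higher numbered 2 with array weights, 4 on slide 2 alone and 93 at an unadjusted p with the same fold change, and genes called lower 80 at that p; leaving out single arrays gave 0 in both directions. Chosen after seeing the data, leaving out MSC replicates 3 and 4 gave 906 genes at an unadjusted p under 0.05 and 3 higher list genes, and leaving out NP replicates 1 and 2 gave 1 gene called lower and 5 lower list genes.

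Replicate numbers are shared by the groups. Between same-numbered arrays, the deviations from the group means had r of 0.20, 0.32, -0.35 and 0.05. These values of mixed sign cannot settle whether the numbers pair the samples, which were compared as unpaired. A fit with the replicate block, without NP replicate 5, gave 3 members other than Cd151 and 873 higher and 701 lower genes at an unadjusted p under 0.05, 5 lower list genes, and log2 fold changes of 0.54 for Cd151 and 0.50 for Cd82.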
